A study of Mus musculus with 21 samples.

Results

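The genes of ER-associated degradation (ERAD) described here were *Sel1l*, *Syvn1*, *Derl1*, *Derl2*, *Derl3*, *Edem1*, *Edem2*, *Herpud1*, *Os9* and *Erlec1*, 10 genes chosen by name out of the 53801 genes of the count table. Each of the 10 was found once by its symbol, and all 10 were among the 20256 genes that passed the filter on low counts and were tested. Their RNA was measured by bulk RNA-seq in IgA+ plasma cells (PC), sorted as CD138+ IgA+ cells from the small intestinal lamina propria of 21 mice on the C57BL/6 background, with 1 library per mouse. Zeitgeber time (ZT) counts hours from lights on, and cells were taken at ZT0 or ZT12. Control mice were Mb1Cre-/- x *Arntl* fl/fl (6 at ZT0 and 6 at ZT12) and knockout mice were Mb1Cre+/- x *Arntl* fl/fl (4 at ZT0 and 5 at ZT12), so that the floxed *Arntl* alleles were carried by controls as well. In the knockout mice, Cre was expressed from the Mb1 locus, which is *Cd79a*, and therefore throughout the B cell lineage and not in plasma cells alone. Genotypes were read from the sample titles, because for 8 of the 9 knockout mice the separate genotype field gave the control genotype.

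ERAD removes proteins that fail to fold in the endoplasmic reticulum (ER). Mannosidases trim the N-glycans of such proteins, lectins bind the trimmed glycans and hand the protein to a ubiquitin ligase in the ER membrane, and the protein is drawn into the cytosol, ubiquitinated and degraded by the proteasome. Plasma cells fill their ER with immunoglobulin, and many ERAD genes are targets of the unfolded protein response, in which the spliced form of the transcription factor XBP1 takes a large part.

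The libraries held 14471018 to 22785835 counts, of which immunoglobulin genes took 51.5% to 63.6%. This share was 51.5% to 53.3% in control mice at ZT0, 53.3% to 63.6% in control mice at ZT12, 53.6% to 59.4% in knockout mice at ZT0 and 53.7% to 55.7% in knockout mice at ZT12. Plasma cell markers were abundant, with *Sdc1* at 462 to 708 and *Jchain* at 37478 to 69809 CPM (counts scaled to library size, here with TMM factors). Among markers of other cells, the summed level of 20 epithelial genes was 59.2 to 272 CPM in control mice at ZT0 and 80.5 to 1338 CPM at ZT12, with the highest value in control ZT12 replicate 5. In knockout mice this sum was 81.6 to 94.0 CPM at ZT0 and 71.0 to 679 CPM at ZT12, highest in knockout ZT12 replicate 5. *Cd3e*, *Cd8a*, *Pax5*, *Col1a1* and *Dcn* were each under 2 CPM in every library. The targeted gene *Arntl* had a log2 fold change of -0.68 (SE 0.17) in knockout over control mice at ZT0, with no overlap between the groups, but was not called (edgeR adjusted p = 0.926), and at ZT12 it was -0.23 (SE 0.16, adjusted p = 0.678). Gene counts do not show which exons of *Arntl* were read. *Cd79a*, the locus that holds Cre, was lower in knockout mice, with a log2 fold change of -1.21 (SE 0.15) at ZT0 and -1.18 (SE 0.14) at ZT12 (edgeR adjusted p = 9.08e-05 and 2.87e-05), with no overlap of the groups.

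The promoters of 3 of the genes carried sequence elements of the ER stress response, and are shown because they mark the members with the letters through which ATF6 and XBP1 are known to act. RefSeq promoters (GRCm38.p6, 250 bases before to 50 bases after the gene's start) were found for 8 of the 10 genes, with 2 starts for *Derl2*. No entry was found for *Derl1* and *Erlec1*. In the sequences, written 5′ to 3′ on the strand of the gene, the element is in capitals.
Derl3: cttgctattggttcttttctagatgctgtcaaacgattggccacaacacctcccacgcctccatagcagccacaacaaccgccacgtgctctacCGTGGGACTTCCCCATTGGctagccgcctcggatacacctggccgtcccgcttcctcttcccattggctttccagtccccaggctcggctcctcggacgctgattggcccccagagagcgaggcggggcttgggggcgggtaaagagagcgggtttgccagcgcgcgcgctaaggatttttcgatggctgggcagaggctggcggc
Syvn1: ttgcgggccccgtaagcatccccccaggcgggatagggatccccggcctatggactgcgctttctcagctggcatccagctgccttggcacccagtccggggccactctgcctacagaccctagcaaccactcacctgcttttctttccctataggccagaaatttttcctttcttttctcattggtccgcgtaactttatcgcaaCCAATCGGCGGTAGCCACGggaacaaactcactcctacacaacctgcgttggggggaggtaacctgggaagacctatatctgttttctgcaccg
Herpud1: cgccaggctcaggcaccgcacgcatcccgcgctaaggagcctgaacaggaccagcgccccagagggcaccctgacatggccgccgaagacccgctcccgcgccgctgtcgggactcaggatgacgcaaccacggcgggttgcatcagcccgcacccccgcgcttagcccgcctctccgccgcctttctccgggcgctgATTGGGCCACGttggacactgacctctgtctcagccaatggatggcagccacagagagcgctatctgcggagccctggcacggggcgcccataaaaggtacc
The *Derl3* promoter (chr10:75893148-75893447, plus strand) held the ER stress response element (ERSE, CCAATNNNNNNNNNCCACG) in reverse orientation, beginning 156 bases before the start. The *Syvn1* promoter (chr19:6046326-6046625, plus strand) held ERSE in forward orientation 44 bases before the start. Searched on both strands, ERSE was present in 39 of 32851 promoters of the same length (0.119%). The *Herpud1* promoter (chr8:94386179-94386478, plus strand) held ERSE-II (ATTGGNCCACG), which was present in 12 of all promoters (0.0365%), 52 bases before the start. The core of the unfolded protein response element (TGACGTG), present in 2.01% of promoters, was in none of these windows. The E-box CACGTG, the letters that the CLOCK and BMAL1 pair is known to bind, was present in 7.15% of all promoters and, among these genes, in that of *Derl3*, 168 bases before the start, where it did not overlap ERSE. A match describes the letters in the window and not a bound site.

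Most ERAD genes were transcribed at high levels in IgA+ PC. Together the 10 genes took 1.33% to 1.86% of all counts outside immunoglobulin genes. By CPM, *Edem1* ranked 10, *Herpud1* 11, *Derl3* 28, *Syvn1* 43, *Sel1l* 44 and *Edem2* 57 among the 19953 genes tested that are not immunoglobulin genes, whereas *Derl2* ranked 1666 and *Erlec1* 1676. Levels per length, in CPM per kb of the gene length in the table, gave the order between genes over the 21 mice. *Herpud1* was highest at 782 ± 146 (SD, n = 21) CPM per kb, followed by *Derl3* at 426 ± 68.3, *Edem1* at 295 ± 29.4, *Edem2* at 158 ± 23.3, *Syvn1* at 139 ± 26.2, *Os9* at 89.3 ± 6.87, *Sel1l* at 77.1 ± 11.8, *Derl1* at 76.6 ± 6.80, *Erlec1* at 16.1 ± 3.70 and *Derl2* at 6.55 ± 0.751. *Herpud1*, *Derl3* and *Edem1* each stood above the next gene in 21 of 21 mice, as did *Syvn1* above *Os9*, *Derl1* above *Erlec1* and *Erlec1* above *Derl2*. *Sel1l* and *Derl1* could not be ordered, since *Sel1l* was higher in 12 of 21 mice, and *Edem2* was above *Syvn1* in 15 and *Os9* above *Sel1l* in 18. Across mice, the highest level of a gene was 1.30 times the lowest for *Os9* and up to 2.15 times for *Erlec1*.

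**Figure D1:**
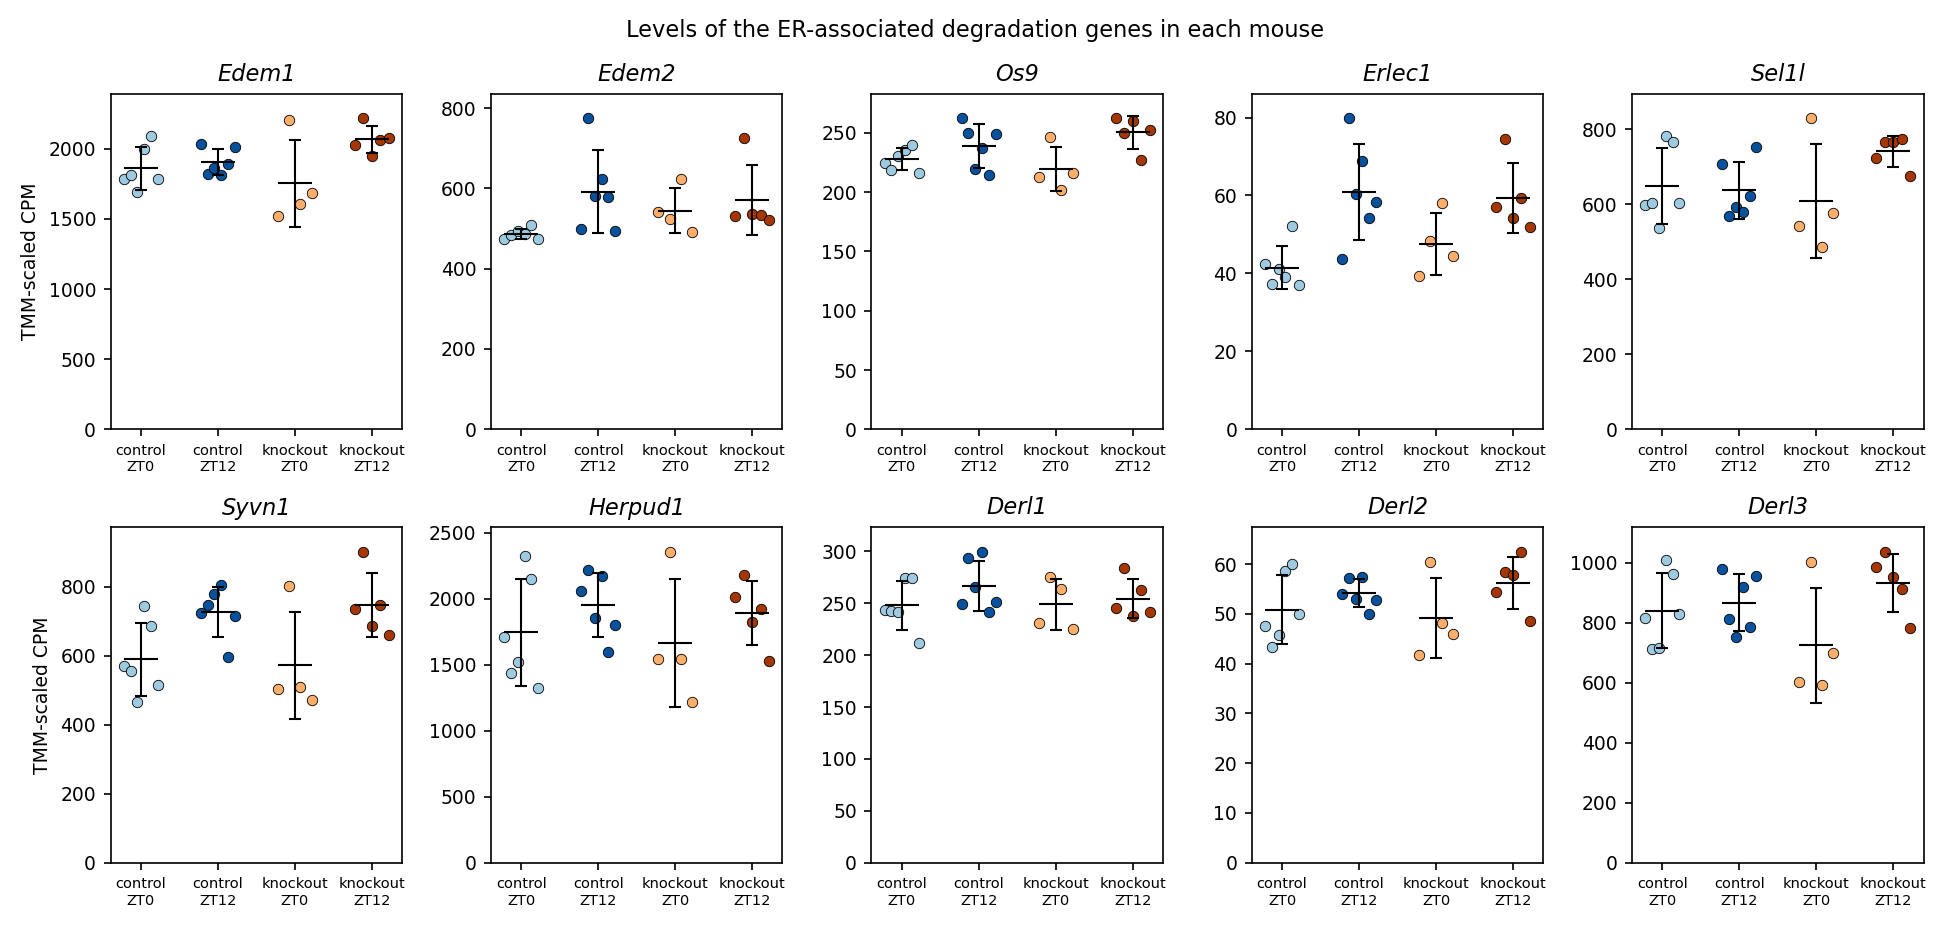
TMM-scaled CPM of each of the 10 genes (1 panel per gene, axis from 0) by group, with 1 point per mouse and the mean ± SD as bars. *Erlec1* is higher at ZT12 than at ZT0 in control mice with some overlap, and single high mice at ZT0 stand out for *Syvn1*, *Herpud1*, *Sel1l* and *Derl3*.

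The first comparison asked whether the transcripts changed between ZT0 and ZT12 in control mice. Of the 10 genes, 1 was called, *Erlec1*, against a background of 350 of 20256 genes (1.73%) at an edgeR adjusted p under 0.05. *Erlec1* encodes an ER lectin that binds trimmed N-glycans and joins the SEL1L complex (chr11:30930774-30954335, minus strand). Its level in control mice was lowest at 37.1, median 40.1 and highest at 52.1 CPM at ZT0, and lowest at 43.7, median 59.3 and highest at 79.8 CPM at ZT12. The groups overlapped, because the lowest ZT12 mouse was under the highest ZT0 mouse. *Erlec1* rose 1.47-fold, a log2 fold change of 0.55 (SE 0.13, edgeR adjusted p = 0.0280). The table lists its samples in 3 runs that each go through the 4 groups, and what the runs stand for is not given in the sources used here. Within them the difference of mean log2 levels of *Erlec1*, ZT12 minus ZT0, was 0.55, 0.51 and 0.60. The runs held 3, 2 and 1 control mice at ZT0 and 2 each at ZT12. Leaving out 1 control mouse at a time gave log2 fold changes from 0.46 to 0.64, but the call was lost in 8 of the 12 such fits (adjusted p = 0.0520 to 0.0831), namely without ZT0 replicate 1, 2, 3, 4 or 6 or ZT12 replicate 2, 3 or 4. It was also lost with the immunoglobulin share of the library as a covariate (log2 fold change 0.29, edgeR adjusted p = 0.556). Every control mouse at ZT12 had a higher share than every one at ZT0 (at least 53.3455% against at most 53.3452%). The fit therefore separates the share from time of day poorly. *Arntl* in control mice had a log2 fold change of -0.78 without and -0.85 with this covariate. Its edgeR adjusted p went from 0.0149 to 0.123, so its effect size, unlike that of *Erlec1*, did not shrink. *Asb3*, on the opposite strand over *Erlec1*, held 14.6% as many counts and differed by -0.03 (SE 0.14) on the log2 scale. The summed epithelial markers (above) reached higher values at ZT12, and the 12 stromal and endothelial markers were at 41.6 to 46.4 CPM at ZT0 and 24.2 to 39.3 CPM at ZT12. Nearly all of this sum was *Pecam1*, at 36.0 to 42.4 CPM at ZT0 and 19.1 to 37.1 CPM at ZT12, and the other 11 markers summed to 2.12 to 5.68 and 2.19 to 5.04 CPM. The part of these shifts in the *Erlec1* result was not tested. In bulk RNA, a change in the kinds of cells sorted and a change in RNA per cell cannot be told apart.

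The other glycan-recognising genes were not called in control mice. *Edem2* encodes the mannosidase that begins glycan trimming for ERAD (chr2:155701677-155729475, minus strand). It was lowest at 473, median 485 and highest at 509 CPM at ZT0, and lowest at 494, median 579 and highest at 774 CPM at ZT12. The ZT0 mice lay close together, whereas 4 of the 6 ZT12 mice were above all of them. The log2 fold change was 0.28 (SE 0.11, edgeR adjusted p = 0.166), and 0.06 with the immunoglobulin share as a covariate. *Edem1*, a mannosidase-like factor that withdraws glycoproteins from folding (chr6:108828641-108859356, plus strand), was at 1691 to 2094 CPM at ZT0 and 1816 to 2033 CPM at ZT12, with a log2 fold change of 0.03 (SE 0.09). The lectin gene *Os9* (chr10:127095650-127121131, minus strand) was at 216 to 239.7 CPM at ZT0 and 215 to 262 CPM at ZT12, with a log2 fold change of 0.07 (SE 0.08). The ZT12 values of *Edem1* lay within its ZT0 range, and the ZT0 values of *Os9* within its ZT12 range.

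Among the genes of the ligase complex, *Syvn1* came nearest to a difference. It encodes the ubiquitin ligase HRD1 (chr19:6046576-6053712, plus strand). In control mice it was lowest at 466, median 563 and highest at 743 CPM at ZT0, and lowest at 597, median 734 and highest at 805 CPM at ZT12. ZT0 replicates 4 and 5, at 743 and 687 CPM, lay among the ZT12 mice, and the others were below all of them. The log2 fold change was 0.30 (SE 0.13, edgeR adjusted p = 0.210). *Sel1l*, the partner that stabilises HRD1 and receives substrates (chr12:91806043-91849157, minus strand), had a log2 fold change of -0.03 (SE 0.12), with 537 to 782 CPM at ZT0 and 568 to 754 CPM at ZT12. *Herpud1*, a short-lived membrane protein that helps assemble the complex (chr8:94386438-94395377, plus strand), had the widest spread, from 1325 to 2325 CPM at ZT0 and from 1597 to 2222 CPM at ZT12, and a log2 fold change of 0.16 (SE 0.15).

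The derlins are membrane proteins of the channel through which substrates leave the ER. In control mice *Derl1* (chr15:57869502-57892448, minus strand) had a log2 fold change of 0.11 (SE 0.09), *Derl2* (chr11:71007164-71019841, minus strand) of 0.09 (SE 0.10) and *Derl3* (chr10:75893413-75895941, plus strand) of 0.05 (SE 0.12). None was called, and the ZT0 and ZT12 values of each overlapped. *Mis12* lies over *Derl2* on the other strand and held 36.0% as many counts, so the *Derl2* values are uncertain. Over the 10 genes in control mice, 9 had a positive log2 fold change with a median of 0.10, beside 50.6% positive and a median of 0.01 over all genes tested. *Erlec1*, *Edem2* and *Syvn1*, 3 of 10, had an unadjusted p under 0.05, against 18.1% of all genes.

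In knockout mice, none of the 10 genes was called between ZT0 and ZT12, and neither was any of the 20256 genes (0%) by edgeR, with 1622 genes (8.01%) at an unadjusted p under 0.05. DESeq2 called 47 genes (0.319% of those with an adjusted p), of which 0 were among the 10. All 10 log2 fold changes were positive, from 0.03 to 0.38 with a median of 0.22, beside 50.7% positive and a median of 0.01 over all genes. An unadjusted p under 0.05 was found for 5 of the 10, *Syvn1*, *Derl3*, *Edem1*, *Sel1l* and *Erlec1*. This number was 7 without knockout ZT0 replicate 2 and 0 without knockout ZT0 replicate 1. Without knockout ZT0 replicate 3 or 4 or ZT12 replicate 2 it was 1, so it changed with the mouse left out. The share of all genes in these fits is not given here. Within the runs of columns, each of the 10 genes other than *Edem2* was higher at ZT12 in 3 of 3 runs, and *Edem2* in 2. These runs held only 1, 2 and 1 knockout mice at ZT0 and 1, 1 and 3 at ZT12. The share of all genes that were higher in 3 of 3 runs is not given here.

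*Syvn1* was at 505, 803, 509 and 472 CPM in the 4 knockout mice at ZT0 and at 734, 901, 687, 748 and 661 CPM in the 5 at ZT12. At ZT0 replicate 2 stood far above the other three mice, which were all below every ZT12 mouse. The log2 fold change was 0.38 (SE 0.15, edgeR adjusted p = 0.601), and within the 3 runs of columns the difference was 0.54, 0.49 and 0.56.

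*Derl3*, the derlin of highly secretory cells, was at 604, 1002, 591 and 700.1 CPM at ZT0 and at 988, 1037, 951, 912 and 782 CPM at ZT12. The same ZT0 mouse, replicate 2, was high, and the remaining ZT0 mice lay under all ZT12 mice. The log2 fold change was 0.37 (SE 0.14, edgeR adjusted p = 0.600).

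*Sel1l* was at 543, 829.5, 485 and 577 CPM at ZT0 and at 723, 766, 768, 775 and 677 CPM at ZT12, with a log2 fold change of 0.28 (SE 0.14, edgeR adjusted p = 0.615). Here replicate 2 at ZT0 was the highest of all 9 knockout mice, and the other ZT0 mice the lowest. *Edem1* was at 1519, 2209, 1604 and 1686 CPM at ZT0 and at 2030, 2218, 1951, 2065 and 2075 CPM at ZT12, with a log2 fold change of 0.24 (SE 0.10, edgeR adjusted p = 0.613). Again only replicate 2 at ZT0 lay within the ZT12 range. *Erlec1* was at 39.4, 48.4, 58.1 and 44.4 CPM at ZT0 and at 57.0, 74.5, 54.2, 59.4 and 51.9 CPM at ZT12. For *Erlec1* the overlapping ZT0 mouse was replicate 3, whose immunoglobulin share of 59.4% was the highest of the knockout mice, and the log2 fold change was 0.32 (SE 0.15, edgeR adjusted p = 0.613). Of the remaining genes, *Os9* had a log2 fold change of 0.19 (SE 0.09), *Derl2* of 0.20 (SE 0.11), *Herpud1* of 0.18 (SE 0.17), *Edem2* of 0.07 (SE 0.12) and *Derl1* of 0.03 (SE 0.10).

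**Figure D2:**
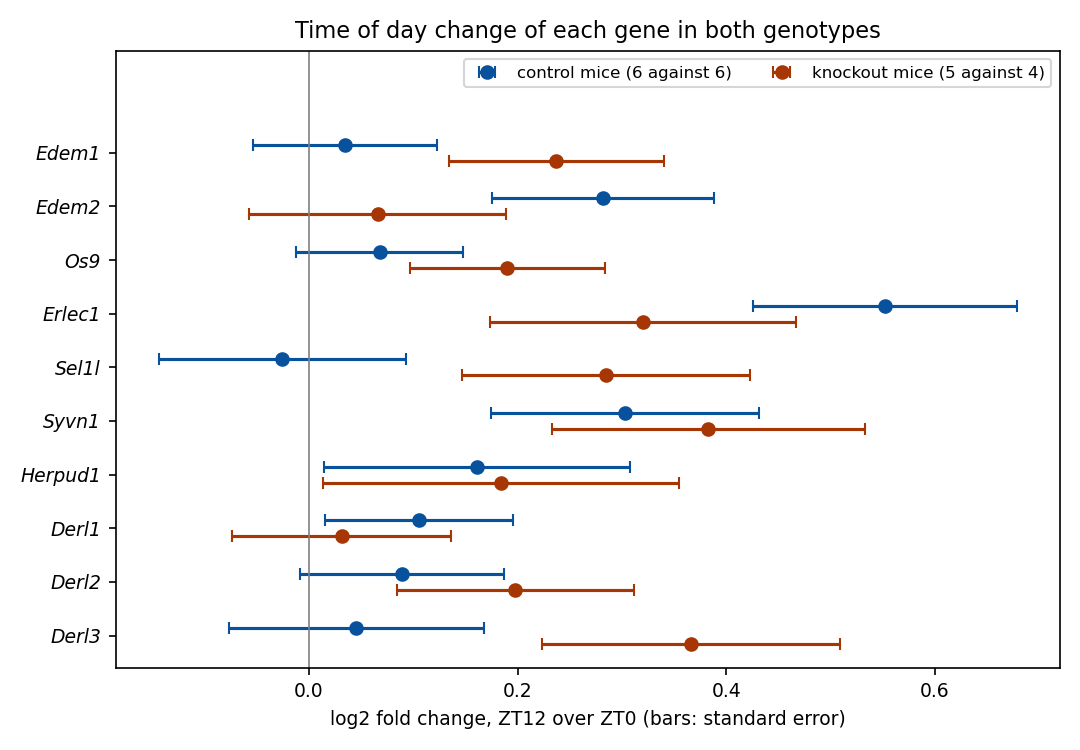
Log2 fold change of ZT12 over ZT0 for each gene (x axis, log2 units) in control mice (blue) and knockout mice (brown), with the standard error as bars. The control values run from -0.03 for *Sel1l* to 0.55 for *Erlec1* and the knockout values from 0.03 for *Derl1* to 0.38 for *Syvn1*.

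The change with time of day was not shown to differ between the genotypes for any ERAD gene. The test of the difference of the log2 fold changes, knockout minus control, called 0 of 20256 genes (0%) by edgeR and 4 by DESeq2 (0.0279% of those with an adjusted p), none of them one of the 10, and 0 of the 10 had an unadjusted p under 0.05, against 10.8% of all genes. The largest differences were 0.32 (SE 0.19, edgeR adjusted p = 0.517) for *Derl3* and 0.31 (SE 0.18, adjusted p = 0.517) for *Sel1l*, higher in knockout mice, and -0.23 (SE 0.19, adjusted p = 0.665) for *Erlec1*. Thus the call of *Erlec1* in control mice and its lack in knockout mice did not amount to a difference between them. Without knockout ZT0 replicate 2, 3 genes (*Sel1l*, *Derl3* and *Edem1*) had an unadjusted p under 0.05, as did *Edem2* without knockout ZT12 replicate 2, and none was called.

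Levels were also compared between genotypes at each time. At ZT0 edgeR called 2 of all genes (0.00987%) and at ZT12 3 (0.0148%), none of them among the 10. An unadjusted p under 0.05 was found for 0 of the 10 at either time, against 4.9% of all genes at ZT0 and 8.83% at ZT12. The log2 fold changes, knockout over control, ran from -0.21 for *Derl3* to 0.20 for *Erlec1* at ZT0 and from -0.07 for *Derl1* to 0.22 for *Sel1l* at ZT12, and all groups overlapped. Without knockout ZT0 replicate 2, *Sel1l*, *Derl3* and *Edem1* had an unadjusted p under 0.05 at ZT0, and without control ZT12 replicate 6 *Sel1l* had one at ZT12, with no call. The standard errors of these 20 values were 0.08 to 0.16.

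Other ERAD genes were counted as a list of 58, of which 57 were tested. In control mice 1 was called between ZT0 and ZT12 by edgeR, against 1.73% of all genes, and 4 by DESeq2, against 8.5% of the genes to which it gave an adjusted p. The gene called by edgeR was *Ufd1*, a cofactor of the p97 ATPase that extracts proteins from the ER membrane, which rose by 0.33 on the log2 scale (SE 0.09, edgeR adjusted p = 0.0479). *Ufd1* was lowest at 26.0, median 29.5 and highest at 33.1 CPM at ZT0, and at 32.5 to 45.8 CPM at ZT12, with overlap of the groups. Its call was lost in 17 of the 21 fits without 1 mouse (edgeR adjusted p = 0.0505 to 0.133), holding without control ZT12 replicate 1, 5 or 6 or knockout ZT0 replicate 3. It was also lost with the replicate number as a block (adjusted p = 0.0661) and with the immunoglobulin share as a covariate (adjusted p = 0.571). The next smallest p-values were those of *Stt3b*, a catalytic subunit of oligosaccharyltransferase, at -0.60 (SE 0.16, edgeR adjusted p = 0.0554), and *Selenos*, a derlin-binding membrane selenoprotein, at 0.39 (SE 0.11, edgeR adjusted p = 0.0662). All 3 of these genes were among the 4 called by DESeq2. Of the 57 genes, 32 had a positive log2 fold change in control mice with a median of 0.02, and 42 in knockout mice with a median of 0.07, beside 50.6% and 50.7% of all genes and medians of 0.01. None was called in knockout mice by either tool.

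Regulators and sensors of the unfolded protein response, a list of 25 genes, had 0 called genes in control mice by edgeR, with 7 at an unadjusted p under 0.05, against 18.1% of all genes, and 2 called by DESeq2, against 8.5%. The transcription factor gene *Xbp1* had a log2 fold change of 0.28 (SE 0.10, edgeR adjusted p = 0.143), *Creb3*, an ER-bound transcription factor gene, of 0.36 (SE 0.13, adjusted p = 0.152) and *Ddit3*, which encodes CHOP, of 0.59 (SE 0.21, adjusted p = 0.162). The 2 genes called by DESeq2 were *Xbp1* (DESeq2 adjusted p = 0.0379) and *Ddit3* (0.0407), and *Creb3* was not called by it (0.0741). With the immunoglobulin share as a covariate, the log2 fold changes in control mice were 0.05 for *Xbp1*, 0.10 for *Creb3* and 0.20 for *Ddit3*. Their edgeR adjusted p was then 0.923, 0.889 and 0.864. In knockout mice the log2 fold changes of these 3 genes were -0.04, 0.01 and -0.12, and the difference between genotypes was not called for any of them (edgeR adjusted p = 0.455 to 0.514). Gene counts give the total of *Xbp1* and not its spliced form.

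For several of the genes, single mice stood far from the others of their group. To describe this, the group mean was taken from each log2 CPM value. In control ZT0 replicates 4 and 5 and knockout ZT0 replicate 2, *Herpud1* deviated by 0.44, 0.33 and 0.54, *Syvn1* by 0.35, 0.24 and 0.52, and *Sel1l* by 0.28, 0.25 and 0.48. These 3 mice had the highest summed level of the 10 genes at ZT0, at 7950, 7797 and 8353 CPM against 5679 to 6510 CPM in the other ZT0 mice, and all 3 lay in the second run of columns. The remaining ZT0 mouse of that run, knockout ZT0 replicate 3, was at 5933 CPM. *Edem2* deviated by -0.0033, 0.07 and -0.05 in these 3 mice and *Erlec1* by -0.08, 0.34 and 0.04, so that *Erlec1* was high in control ZT0 replicate 5 alone of them. Both genes deviated most upward in control ZT12 replicate 2 (by 0.41 for each), whose immunoglobulin share of 63.6% was the highest of all libraries. Next upward was knockout ZT12 replicate 2 (*Erlec1* by 0.34 and *Edem2* by 0.36), whose share was 54.3%. The largest deviation of *Erlec1* in either direction was downward, by -0.45 in control ZT12 replicate 1, whose share was 53.9%. *Edem2* deviated there by -0.23.

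**Figure D3:**
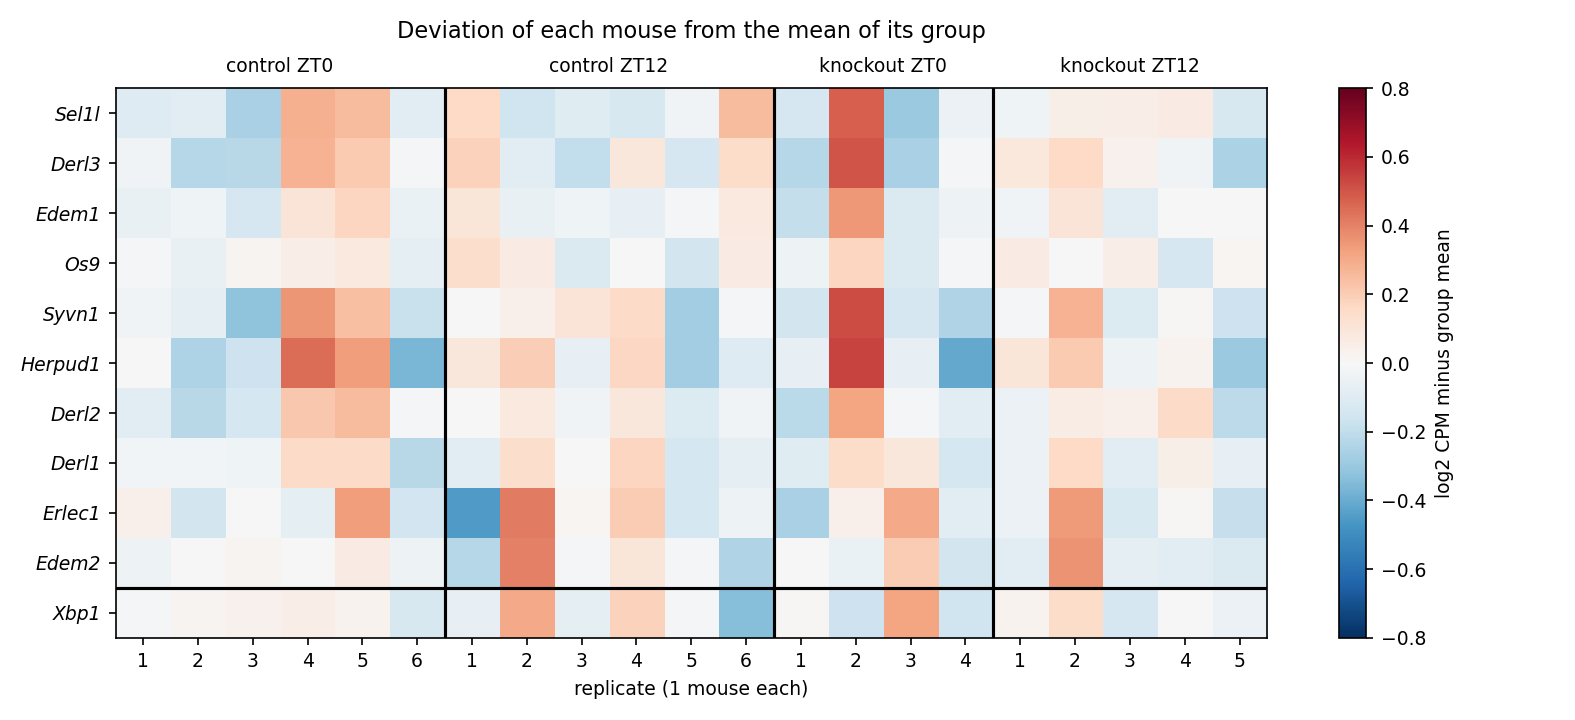
Deviation of each mouse (columns, by group and replicate) from its group mean in log2 CPM (colour) for the 10 genes and *Xbp1* (rows). *Sel1l*, *Derl3*, *Syvn1*, *Herpud1* and *Derl2* are high together in control ZT0 replicates 4 and 5 and knockout ZT0 replicate 2, whereas *Edem2* is high in control ZT12 replicate 2 and knockout ZT12 replicate 2, and *Erlec1* in both of these, in control ZT0 replicate 5 and in knockout ZT0 replicate 3.

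Correlations of these deviations over the 21 mice were computed for the 45 pairs of genes, with two-sided p-values from 100000 permutations of mice within groups, adjusted over the pairs. All values of a mouse share its library and scaling factor, so part of any correlation may be common to many genes. Pearson's r ran from -0.33 to 0.90 with a median of 0.58, and 25 pairs, all positive, had an adjusted p under 0.05. By Spearman's rho 22 pairs did. The share of gene pairs in general that pass this test is not given here. Beside this, *Syvn1* had r over 0.5 with 7.56% of 7128 expressed genes and with 6 of the 9 other ERAD genes, and *Edem2* with 19.9% of genes and 2 of the 9.

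*Syvn1* and *Herpud1* gave the highest value (r = 0.90, permutation p = 3e-05, adjusted p = 0.000675, Spearman's rho = 0.90, permutation p = 1e-05, the smallest the permutations can give, adjusted p = 0.00045). Without the 2 mice farthest from the median r was 0.82, and within the 3 runs of columns it was 0.69, 0.91 and 0.83. *Sel1l* and *Edem1* gave r = 0.89 (permutation p = 0.00016, adjusted p = 0.00144, rho = 0.81, permutation p = 0.00025, adjusted p = 0.00195), 0.82 without the 2 mice farthest in *Sel1l*, and 0.84, 0.96 and 0.58 within runs. *Sel1l* and *Syvn1*, the 2 core subunits of the ligase, gave r = 0.71 (permutation p = 0.00896, adjusted p = 0.0212, rho = 0.52, permutation p = 0.0352, adjusted p = 0.0689). Without the 2 farthest mice this value dropped to 0.45, and within runs it was 0.60, 0.93 and 0.69. *Edem2* and *Erlec1* gave r = 0.80 (permutation p = 0.0004, adjusted p = 0.00276, rho = 0.59, permutation p = 0.00912, adjusted p = 0.0256), 0.68 without the 2 mice farthest in *Edem2*. Within runs this pair gave 0.89, 0.76 and -0.44, so the value was negative in the third run. That run held 1 control mouse at ZT0, 2 control mice at ZT12, 1 knockout mouse at ZT0 and 3 knockout mice at ZT12. The values within runs were not tested.

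**Figure D4:**
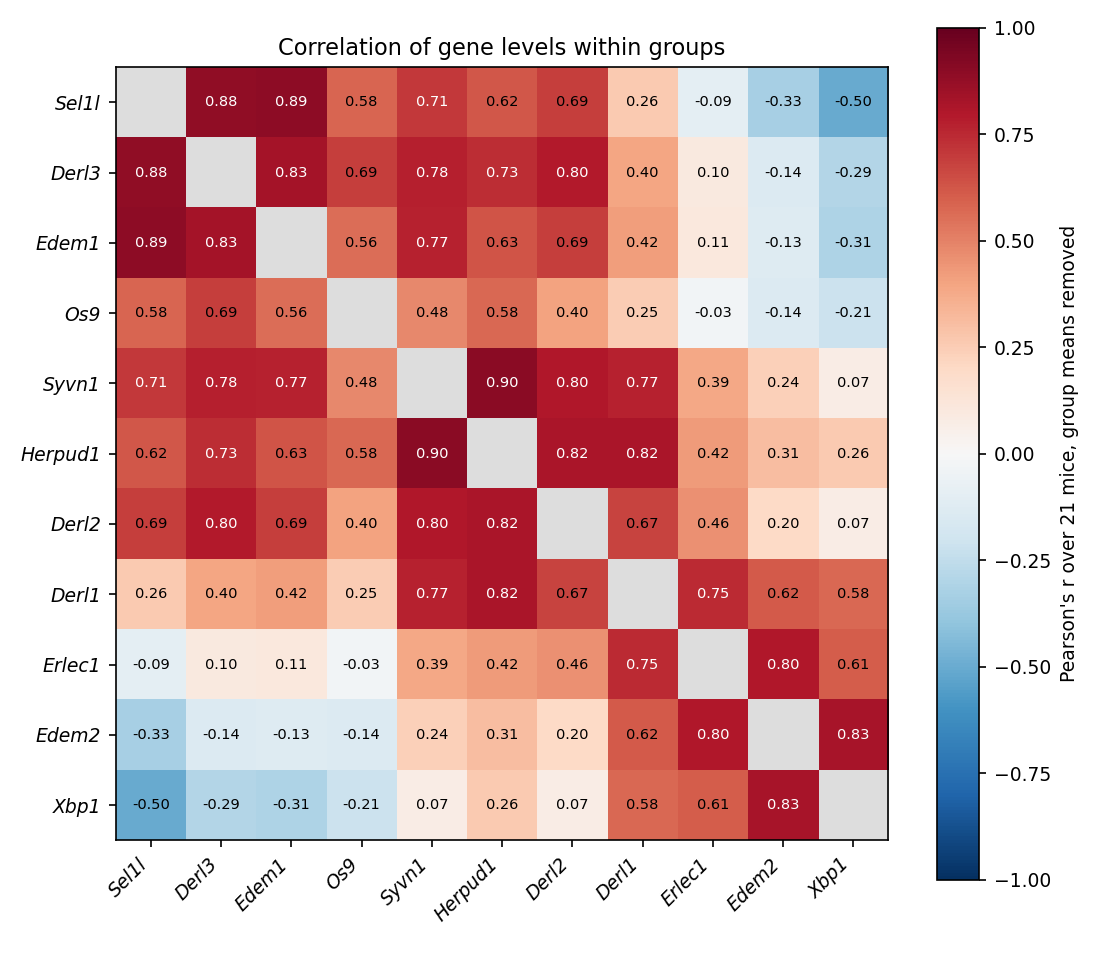
Pearson's r between the log2 levels of the 10 genes and *Xbp1* over 21 mice after removal of group means, as colour and number in each cell. *Sel1l*, *Derl3*, *Edem1*, *Syvn1*, *Herpud1* and *Derl2* had values from 0.62 to 0.90 with each other. *Edem2* and *Erlec1* had 0.80 with each other, 0.62 and 0.75 with *Derl1*, and 0.83 and 0.61 with *Xbp1*. *Derl1* also had 0.82 with *Herpud1*, 0.77 with *Syvn1* and 0.67 with *Derl2*, so the sets were not separate. Without the 2 mice farthest in *Sel1l*, its value with *Herpud1* fell from 0.62 to 0.33.

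Levels of the 10 genes were set against that of *Xbp1* in the same way, with p-values adjusted over the 10 relations. *Xbp1* had r over 0.5 with 18.9% of 7128 expressed genes and with 3 of the 10 ERAD genes. It had r over 0.8 with 2.74% of the expressed genes. The share of all genes that would pass the test is not given here. *Edem2* alone passed over the 21 mice (r = 0.83, permutation p = 3e-05, adjusted p = 0.0003, rho = 0.82, permutation p = 3e-05, adjusted p = 0.0003). It was 0.80 without the 2 mice farthest from the median of *Xbp1*, control ZT12 replicate 6 and knockout ZT0 replicate 3 (permutation p = 0.00056, adjusted p = 0.0056), and 0.97, 0.71 and 0.80 within runs. *Erlec1* gave r = 0.61 (permutation p = 0.0174, adjusted p = 0.0580, rho = 0.49, permutation p = 0.0462, adjusted p = 0.154), and within runs 0.87, 0.60 and -0.21. *Sel1l* gave r = -0.50 (permutation p = 0.0545, adjusted p = 0.136, rho = -0.42, permutation p = 0.0910, adjusted p = 0.227), and within runs -0.46, -0.74 and -0.65. *Derl1* gave r = 0.58 (permutation p = 0.0101, adjusted p = 0.0506, rho = 0.60, permutation p = 0.0112, adjusted p = 0.0561), and within runs 0.93, 0.17 and 0.24. Without the same 2 mice *Erlec1* (r = 0.63) and *Derl1* (r = 0.59) passed as well (permutation adjusted p = 0.0312 for each). The remaining genes ran from -0.31 for *Edem1* to 0.26 for *Herpud1*.

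The immunoglobulin share was related to *Xbp1* and, among the 10 genes, to *Edem2* by Pearson's r, whereas no relation passed by Spearman's rho. After removal of group means the share gave r = 0.76 with *Xbp1* (permutation p = 0.00582, adjusted p = 0.0341 over 11 relations, rho = 0.65, permutation p = 0.0113, adjusted p = 0.124) and 0.68 with *Edem2* (permutation p = 0.00621, adjusted p = 0.0341, rho = 0.56, permutation p = 0.0330, adjusted p = 0.181). Without the 2 mice farthest in the share these values were 0.54 and 0.39. Within runs they were 0.94, 0.86 and 0.76 for *Xbp1* and 0.97, 0.44 and 0.73 for *Edem2*. *Erlec1* gave 0.60 with the share (permutation p = 0.0237, adjusted p = 0.0868, rho = 0.40, permutation p = 0.119, adjusted p = 0.311). With the share taken out of both levels, the correlation of *Edem2* with *Xbp1* was 0.65 and no longer passed (permutation p = 0.0143, adjusted p = 0.143 over the 10 relations), and that of *Erlec1* with *Xbp1* was 0.29 (permutation p = 0.264, adjusted p = 0.529). The part of the share in the relations was not tested further.

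**Figure D5:**
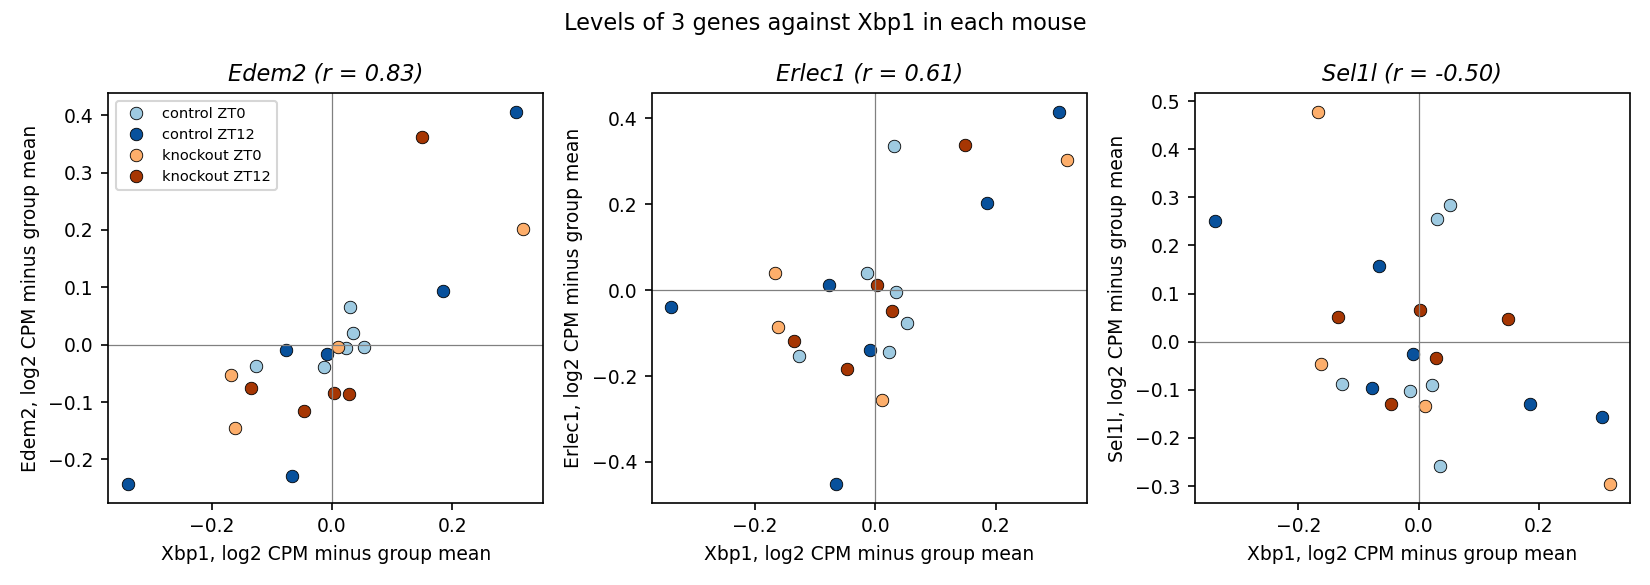
Level of *Edem2*, *Erlec1* and *Sel1l* (y axes) against that of *Xbp1* (x axes) in each of 21 mice, as log2 CPM minus the group mean, coloured by group. *Edem2* follows *Xbp1* (r = 0.83), *Erlec1* less so (r = 0.61), and *Sel1l* has a negative value (r = -0.50) that did not pass the threshold.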

How the data were processed

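Poly-A RNA of each mouse was sequenced, and the authors deposited raw read counts per gene for 21 libraries, without normalization. The submitters' processing notes name DESeq and DESeq2. The aligner, the counting tool and whether strand was used are not given in the sources used here, so genes that overlap on opposite strands cannot be told apart. Coordinates are those of the table, which match GENCODE M21 (GRCm38) for all 10 genes. The ERAD genes and the lists were chosen with earlier results of these data known.

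Genes with a total of 10 or more counts were kept. edgeR 4.0.16 (R 4.3.3) was fitted by robust quasi-likelihood with TMM factors to 4 group means over all 21 mice, and p-values were adjusted by Benjamini-Hochberg over all genes tested, with a threshold of 0.05. The edgeR p-values set a difference between groups against the spread between mice within the groups. The SE of a log2 fold change was calculated back from the test, as its absolute value over the square root of the quasi-likelihood F. Levels are TMM-scaled CPM computed from the deposited counts, and levels per length use the gene length of the table. The lowest count of any of the 10 genes in a library was 627, and counting error is part of the spread between mice. Named beside the 10 genes were the called genes of 2 lists (other ERAD genes, regulators of the unfolded protein response), the 3 genes of each list with the smallest p in control mice, and *Xbp1*, *Arntl* and *Cd79a*. Summed markers of epithelial, T, myeloid, other B and stromal or endothelial cells were checked. T cell markers summed to 24.5 to 53.0 CPM, myeloid to 21.5 to 154 CPM, other B cell to 35.4 to 62.0 CPM and stromal or endothelial, mostly *Pecam1*, to 24.2 to 48.8 CPM, the last without overlap between ZT0 (41.6 to 46.4) and ZT12 (24.2 to 39.3) in control mice.

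Alternatives were DESeq2 1.42.0, its size factors in edgeR, removal of immunoglobulin genes, no count filter, a threshold of 0.01, the replicate number as a block, the immunoglobulin share as a covariate, a fit with the dependence of each library on gene length taken out, and each mouse left out in turn. The run of columns as a covariate, the immunoglobulin share in the correlations and the pairs of genes were added after the data were seen. No 2 libraries of a group were the same within sampling noise (46 pairs, chi-square per gene 29.5 to 242). The scripts were tested on simulated counts.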

Additional observations from a re-analysis of the deposited data

Results flagged for a closer look

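3 of 40 sets of values (each gene in each group) held a mouse whose distance to its nearest neighbour, relative to the range of its group, passed Dixon's 95% value, where chance alone gives about 2 (1 in 20). *Syvn1* in knockout mice at ZT0 was 803 CPM in replicate 2, with the next mouse at 509 CPM. *Edem2* in knockout mice at ZT12 was 726 CPM in replicate 2, with the next at 537 CPM. *Erlec1* in control mice at ZT0 was 52.1 CPM in replicate 5, with the next at 42.4 CPM.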

How the results depend on the processing

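*Erlec1* in control mice kept its direction under every alternative run, and its call under DESeq2, DESeq2 size factors, removal of immunoglobulin genes, no count filter, removal of the length trend and the run of columns (edgeR adjusted p = 0.00971). With the replicate block its log2 fold change was 0.53 (edgeR adjusted p = 0.0408). Of 28 pairs of mice with the same number in different groups, 7 correlated over 0.1 (r from -0.31 to 0.35 over 7129 genes), so the numbers were not taken to pair mice; the block changed no call of the 10 ERAD genes, and among the other ERAD genes it ended that of *Ufd1* (edgeR adjusted p = 0.0661). None of the 10 genes was called at a threshold of 0.01 (0) or with the immunoglobulin share as a covariate (0), and leaving out 1 mouse gave 0 to 1. The causes were not tested.

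The number of genes called in control mice, 350, was 1052 with DESeq2, 183 with the replicate block, 0 with the immunoglobulin share, 545 with the run of columns and 14 at a threshold of 0.01, and 31 to 944 without 1 mouse. In knockout mice it was 47 with DESeq2, 1 without the count filter, 1 with the immunoglobulin share and 0 to 1 without 1 mouse. For the difference between genotypes it was 4 with DESeq2, 1 without the length trend and 0 to 1 without 1 mouse. Between genotypes it was 5 with DESeq2 and 4 without the length trend at ZT0, and 8 with DESeq2 at ZT12. In knockout mice, the ERAD genes at an unadjusted p under 0.05, of which there were 5, became 3 without the count filter, 8 with the run of columns and 0 to 7 without 1 mouse. For the difference between genotypes they were 1 without the length trend, 1 with the run of columns and 0 to 3 without 1 mouse, and between genotypes 0 to 3 at ZT0 and 0 to 1 at ZT12 without 1 mouse. The number of ERAD genes related to *Xbp1*, 1, was 2 without immunoglobulin genes, 3 without the 2 mice farthest from the median of *Xbp1* and 0 with the immunoglobulin share taken out.

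Several log2 values turned sign, none of which was called. With the immunoglobulin share they were 0.12 for *Sel1l* in control mice, 0.031 for *Derl1*, 0.035 for *Edem2* and 0.062 for *Erlec1* in the difference between genotypes, -0.041 for *Derl1* between genotypes at ZT0, and 0.090 for *Edem2* and 0.13 for *Erlec1* at ZT12. Without the length trend they were 0.093 for *Sel1l*, -0.067 for *Derl3* and -0.0010 for *Os9* in control mice, -0.066 for *Derl2* in the difference, 0.0094 for *Derl2* at ZT0, and -0.0045 for *Syvn1*, -0.057 for *Derl2* and 0.029 for *Herpud1* at ZT12. DESeq2 and its size factors gave -0.0017 for *Herpud1* in the difference. The replicate block gave -0.033 for *Derl1* at ZT0. The run of columns gave -0.012 for *Derl1* at ZT0, and 0.049 for *Herpud1* and 0.0049 for *Erlec1* at ZT12. Without 1 mouse the ranges that crossed 0 were -0.076 to 0.037 for *Sel1l* in control mice, -0.026 to 0.068 for *Derl1* and -0.037 to 0.14 for *Edem2* in knockout mice, -0.11 to 0.22 for *Herpud1* and -0.015 to 0.27 for *Syvn1* in the difference, -0.036 to 0.058 for *Derl1*, -0.16 to 0.019 for *Derl2*, -0.27 to 0.064 for *Herpud1*, -0.27 to 0.0026 for *Sel1l* and -0.24 to 0.045 for *Syvn1* at ZT0, and -0.16 to 0.034 for *Edem2*, -0.13 to 0.052 for *Erlec1*, -0.098 to 0.019 for *Herpud1* and -0.040 to 0.071 for *Syvn1* at ZT12. Against *Xbp1*, r was -0.026 for *Derl2* with the immunoglobulin share taken out and 0.0069 for *Os9* without the 2 farthest mice.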
